A study of Mus musculus with 6 samples.

Results

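Heat shock proteins and their DnaJ partners were examined in gastrocnemius muscle of HrasG12V mice, a model of Costello syndrome. The genes were chosen by name, as all listed symbols that start with Hspa, Hspb, Hsph, Dnaja, Dnajb or Dnajc followed by a number, together with Hsp90aa1, Hsp90ab1, Hsp90b1, Hspd1 and Hspe1. The rule reads symbols only and found 72 of the 23997 genes in the expression tables. Of these, 63 had a mean of at least 0.5 FPKM (fragments mapped to a gene, scaled by transcript length and by library size) over the 6 libraries, the level at which genes were tested, as did 13359 genes in all. The member nearest to this limit on the upper side was Hspa1b, at a mean of 1.18 FPKM, and the nearest below it was Dnajb7, at 0.172 FPKM.

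RNA was sequenced from 3 HrasG12V mice (numbers 2276, 2278 and 2279) and 3 WT mice (numbers 2277, 2280 and 2281), all untreated littermates aged 21 days, with 1 library per mouse. HrasG12V mice were Caggs-Cre+/HrasG12V/+, heterozygous for the activated allele under its own promoter, and since the Cre transgene is driven by a ubiquitous promoter the allele was not limited to muscle fibers. WT mice were Caggs-Cre-/HrasflG12V/+, so they carried the same allele unrecombined, expressed normal Hras and had no Cre, and the genotype therefore cannot be told apart from the presence of Cre. All were bred on a mixed SWR/J, 129S1/SvImJ and C57BL/6J background, and the labels gave no sex, litter or batch.

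Molecular chaperones bind unfolded or partly folded proteins and keep them from aggregating. Hsp70 proteins (Hspa genes) do so in a cycle driven by ATP, in which a J-domain protein (Dnaja, Dnajb and Dnajc genes) delivers the client and starts ATP hydrolysis, and a nucleotide exchange factor such as an Hsp110 protein releases it. Hsp90 proteins act later, on kinases and receptors close to their final fold, and small heat shock proteins (Hspb genes) hold clients without ATP and are abundant in striated muscle, where they guard the sarcomere and the desmin network. Heat shock factor 1 induces the cytosolic chaperones, and the unfolded protein response of the endoplasmic reticulum induces those of the secretory pathway.

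The DNA elements that these responses act through were searched for in the members' promoters, and they are shown for the members in which they were found, since the inducible genes are described apart from the others. RefSeq promoter windows, from 250 bases before to 50 bases after the start site on GRCm38.p6, could be matched for 58 of the 72 members. The 14 others, Hspa8, Hsp90aa1 and Hsp90ab1 among them, were not searched. A heat shock element of 3 alternating units (GAANNTTCNNGAA or its reverse complement TTCNNGAANNTTC, on both strands) was found in the windows of 4 members, 6.9% of those matched, against 0.662% of 27025 genes. These were Hspd1, Hspe1, Dnajb6 and Hsph1, the last of which held it only after its RefSeq start site and is not printed. The windows of Hspa1a, Hspa1b, Dnajb1 and Hspb1 held no such exact match, which does not show that these genes lack an element. By the GENCODE annotation the printed Hspd1, Dnajb6 and Hspa5 sequences, which precede the RefSeq start sites, also lie within the bounds of these genes. An endoplasmic reticulum stress element (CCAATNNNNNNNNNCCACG, on both strands) was found in 3 members, 5.17% of those matched, against 0.137% of all, namely Hspa5, Hsp90b1 and Dnajc3. Capitals mark the match in each sequence, written 5′ to 3′ on the strand of the gene. Hspd1 and Hspe1 are divergent neighbours, and their sequences are the same element read from opposite strands.
Hspd1, chr1:55088053-55088082, minus strand: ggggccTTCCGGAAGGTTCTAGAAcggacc
Hspe1, chr1:55088053-55088082, plus strand: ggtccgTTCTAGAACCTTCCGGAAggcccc
Dnajb6, chr5:29735844-29735872, plus strand: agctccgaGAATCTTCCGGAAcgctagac
Hspa5, chr2:34772020-34772048, plus strand: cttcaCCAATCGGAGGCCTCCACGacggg
Hsp90b1, chr10:86705633-86705661, minus strand: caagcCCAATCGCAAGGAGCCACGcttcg
Hsp90b1, chr10:86705528-86705556, minus strand: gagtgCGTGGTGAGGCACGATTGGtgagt
Dnajc3, chr14:118937822-118937850, plus strand: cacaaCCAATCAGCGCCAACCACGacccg
A match describes these letters only and shows no binding. Between the genotypes, none of the 7 genes with a match had an adjusted limma p under 0.05, and only Hsph1 had an unadjusted p under 0.05.

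The libraries differed from each other in several ways. Total FPKM ranged from 413020 to 814013 and was highest in HrasG12V mouse 2276, in which 10 genes held 29.9% of the total, against 18.6% to 24.2% in the other mice. The depth of each library could not be recovered from the FPKM, so the precision of a value rests on the spread between mice. Summed FPKM of 8 B cell markers was 0.834 to 1.45 in WT mice and 1.68 in mouse 2276, but 92.7 in mouse 2278 and 74.3 in mouse 2279, and 8 T cell markers split the mice in the same way. Markers of other cell types varied too, and 7 neutrophil markers summed to 0.716 to 3.68 FPKM in WT mice and to 19.7, 133 and 52.6 FPKM in HrasG12V mice 2276, 2278 and 2279, with 4 of the 5 tested higher at an unadjusted limma p below 0.05. Of 7 tendon fibroblast markers 4 were lower at that threshold, with a sum of 1250 to 2928 FPKM in WT mice and 544, 1720 and 807 FPKM in HrasG12V mice, and of 5 Schwann cell and nerve markers 2 were higher, with a sum of 135 to 372 FPKM in WT mice and 230, 518 and 617 FPKM in HrasG12V mice. The part of these in the chaperone values was not tested. Of 10 skeletal muscle markers, Acta1 and Myh4 were listed at 0 in every library and Ckm in 5, which in muscle can be a failed estimate, and Tnnt3 was listed at 0 in HrasG12V mouse 2276 and Myh1 in WT mice 2277 and 2280, whereas the fast-fiber genes Mylpf and Tnnc2 were high in all 6. The sum of 7 slow-fiber markers was 134 FPKM in WT mouse 2281, against 1537 and 1586 in the other WT mice, and 3787, 1116 and 2287 FPKM in HrasG12V mice 2276, 2278 and 2279, with none of the 7 called. The 7 include Myh2, a myosin of fast-oxidative fibers, which was at 117 FPKM in mouse 2281 and so made up most of its sum. Hras itself was listed at 36.0 to 51.8 FPKM in WT mice and at 58.8, 28.9 and 16.0 FPKM in HrasG12V mice 2276, 2278 and 2279, a value that does not separate the alleles.

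No chaperone was called higher in HrasG12V muscle, and the few that were called were lower, where a call is an unadjusted p below 0.05. With limma on log2(FPKM + 0.1), 6 of 63 members were lower in HrasG12V mice at this threshold and 0 were higher, while 4.99% of all genes tested were lower and 5.18% were higher. No member had an adjusted p below 0.05, as 0.0599% of all genes did. The median log2 fold change was -0.07 over the members, 22 of which lay above 0 and 41 below, and -0.03 over all genes. The genotypes did not overlap for 9 members that were lower in all 3 HrasG12V mice and for 2 that were higher, against 10.4% and 8.11% of all genes. By family, the calls were 3 of 14 Hsp70 and Hsp110 genes, 1 of 9 DNAJB genes and 2 of 24 DNAJC genes, and none of 4 DNAJA, 3 Hsp90, 2 chaperonin and 7 small heat shock protein genes.

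**Figure D1:**
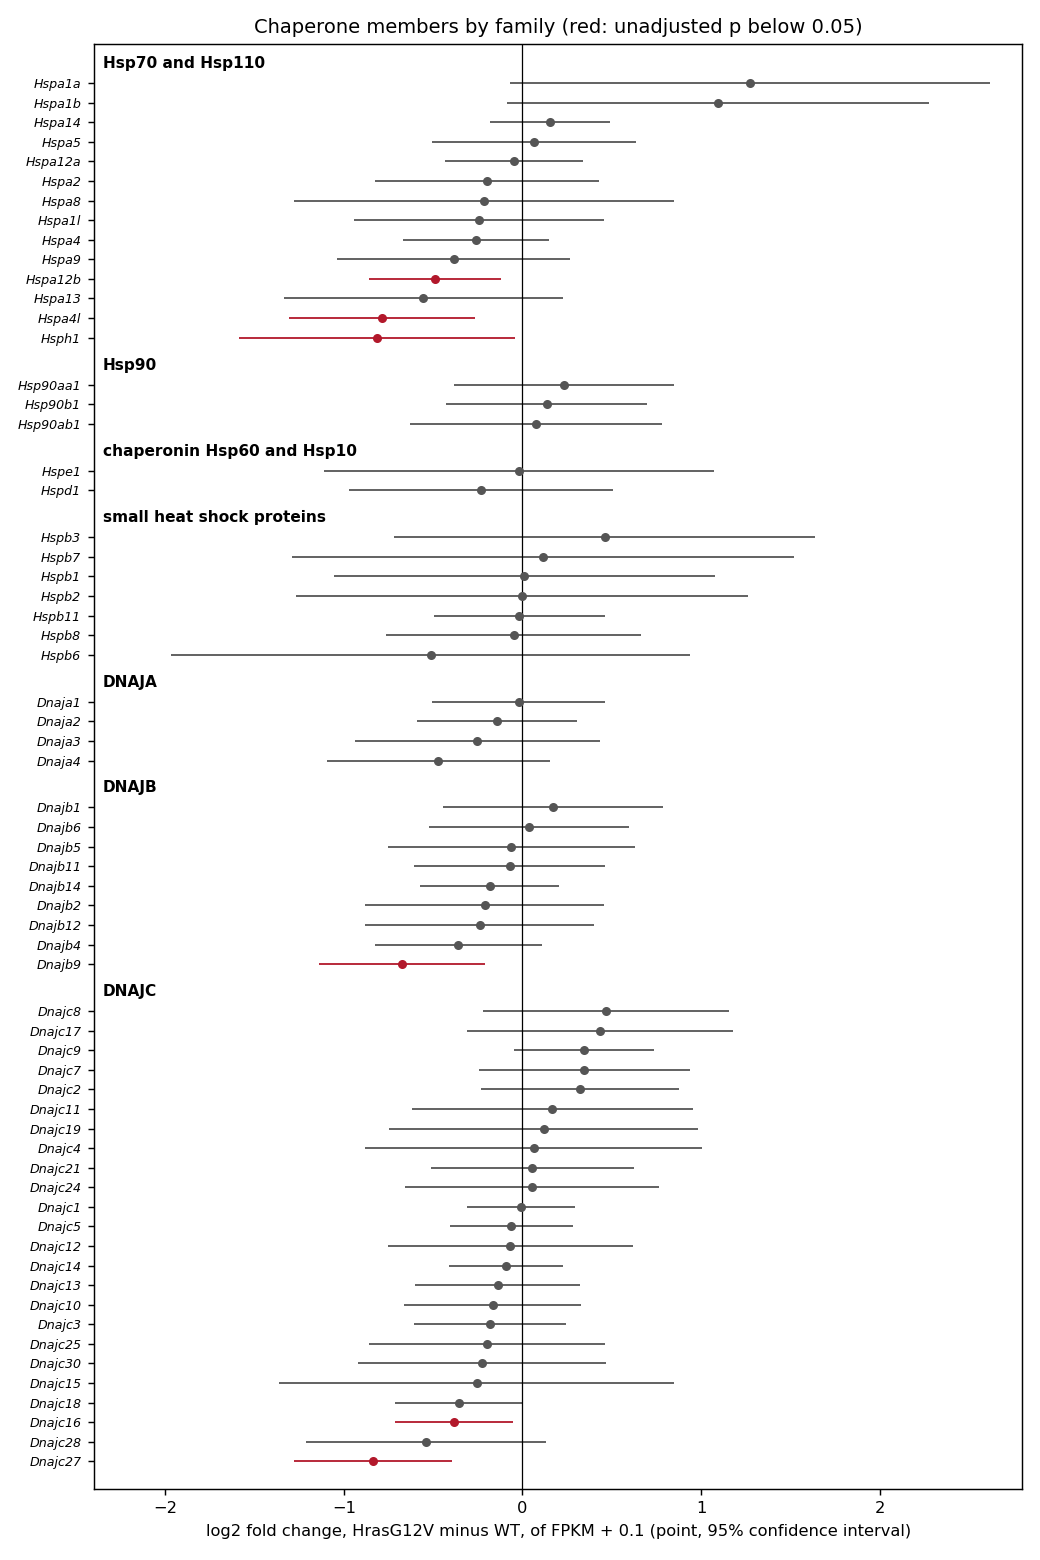
The plot of fold changes gives, for each of the 63 members tested and grouped by family, the log2 fold change of HrasG12V over WT mice on the horizontal axis (point) with its 95% confidence interval (line). The 6 members in red had an unadjusted p below 0.05 and all lie left of 0, while the points farthest to the right, Hspa1a at 1.27 and Hspa1b at 1.09, have intervals that reach across 0.

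The lowest log2 fold change among the members was that of Dnajc27, on chromosome 12 (4082583 to 4110606, GRCm38, plus strand), which encodes a Rab-like GTPase with a J domain. It was listed at 27.4, 27.9 and 27.1 FPKM in WT mice (2277, 2280, 2281) and at 18.5, 15.3 and 12.7 FPKM in HrasG12V mice 2276, 2278 and 2279. The WT mice lay within 1 FPKM of each other and every HrasG12V mouse lay well below them. The log2 fold change was -0.84 (SE 0.18, limma adjusted p = 0.349). Its unadjusted p stayed below 0.05 without any single mouse, and without mouse 2276 its adjusted p was 0.0123, where 9.66% of all genes passed.

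Hspa4l and Hsph1 encode Hsp110 proteins, the nucleotide exchange factors of the Hsp70 cycle, and both were lower in all 3 HrasG12V mice. Hspa4l (chromosome 3, 40744495 to 40796103, plus strand) was at 3.84, 3.20 and 3.26 FPKM in the WT mice and at 1.86, 2.54 and 1.55 FPKM in HrasG12V mice 2276, 2278 and 2279. Its log2 fold change was -0.79 (SE 0.22, limma adjusted p = 0.396), and its p stayed below 0.05 with any single mouse left out. Hsph1 (chromosome 5, 149614287 to 149636376, minus strand) was at 30.6, 27.1 and 28.1 FPKM in the WT mice and at 22.9, 19.0 and 9.76 FPKM in the HrasG12V mice. Mouse 2279 was far below the other HrasG12V mice here, and the log2 fold change of -0.82 (SE 0.32, limma adjusted p = 0.483) lost its call without any 1 of the WT mice or without mouse 2278. The remaining Hsp110 gene, Hspa4, also did not overlap, at 38.6 to 41.2 FPKM in WT and 29.1 to 36.3 FPKM in HrasG12V mice, but its log2 fold change of -0.26 (SE 0.17) did not pass (limma adjusted p = 0.653).

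Dnajb9, Dnajc16 and Hspa12b made up the rest of the lower members. Dnajb9 (chromosome 12, 44205559 to 44210326, minus strand) encodes ERdj4, a J-domain partner of the endoplasmic reticulum Hsp70. It was at 25.1, 20.7 and 21.1 FPKM in the WT mice and at 11.5, 14.01 and 16.7 FPKM in HrasG12V mice 2276, 2278 and 2279. All HrasG12V mice were below all WT mice, mouse 2276 being the lowest, and the log2 fold change was -0.67 (SE 0.19, limma adjusted p = 0.405), with p below 0.05 whichever mouse was left out. Dnajc16 (chromosome 4, 141760189 to 141790931, minus strand), a J-domain protein of the endoplasmic reticulum membrane, was at 6.46, 6.40 and 7.07 FPKM in the WT mice and at 4.60, 5.21 and 5.40 FPKM in the HrasG12V mice. The groups were again apart, with a log2 fold change of -0.38 (SE 0.14, limma adjusted p = 0.469), but the call was lost without any 1 of the WT mice. 

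Hspa12b (chromosome 2, 131127280 to 131146321, plus strand), a distant Hsp70 relative known from endothelial cells, was at 12.3, 11.7 and 9.82 FPKM in the WT mice and at 8.63, 7.54 and 7.80 FPKM in HrasG12V mice 2276, 2278 and 2279. The log2 fold change was -0.49 (SE 0.15, limma adjusted p = 0.433), and the call was lost without WT mouse 2277 or 2280. Of 4 endothelial markers, 1 was lower at an unadjusted limma p below 0.05 (Cdh5, log2 fold change -0.66) and the others did not pass, with log2 fold changes from -0.37 to -0.25, and their sum was 125 to 151 FPKM in WT mice and 94.5 to 111 FPKM in HrasG12V mice. In bulk muscle, fewer cells of a type and less RNA per cell cannot be told apart, and the part of the endothelial markers in the Hspa12b result was not tested. When the values of all genes were scaled to the same total FPKM, the calls for Hspa4l, Dnajb9, Dnajc16 and Hspa12b were lost, and those for Dnajc27 and Hsph1 were not.

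**Figure D2:**
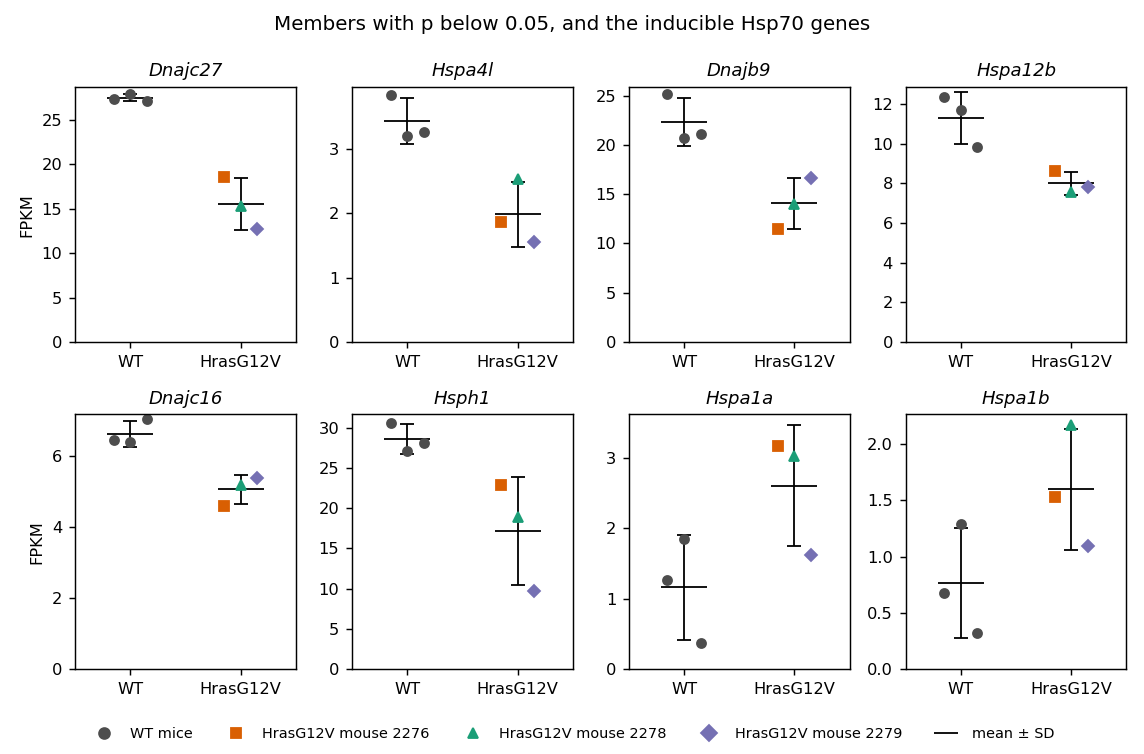
Each panel plots the FPKM of a member in every mouse (vertical axis, from 0), with WT mice as circles, HrasG12V mice by number, and bars for the mean and SD of 3 mice. In the first 6 panels every HrasG12V mouse is below every WT mouse, and in the Hspa1a and Hspa1b panels the mutant mice reach higher but overlap WT.

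The heat-inducible Hsp70 genes had the largest positive fold changes of all members, at very low levels. Hspa1a was at 1.27, 1.86 and 0.369 FPKM in WT mice (2277, 2280, 2281) and at 3.17, 3.03 and 1.62 FPKM in HrasG12V mice 2276, 2278 and 2279. Hspa1b was at 0.679, 1.29 and 0.320 FPKM in the WT mice and at 1.53, 2.17 and 1.10 FPKM in the HrasG12V mice. The groups overlapped for both, because WT mouse 2280 was above HrasG12V mouse 2279, and the log2 fold changes of 1.27 (SE 0.56, limma adjusted p = 0.511) and 1.09 (SE 0.49, limma adjusted p = 0.515) did not pass. Without WT mouse 2280, the highest WT mouse for both, both p fell below 0.05, and no adjusted p did. The genes are near-identical neighbours on chromosome 17, and 58.8% of the 50-base windows of the Hspa1a transcript also occur in Hspa1b, so their reads could be split between them. Their summed level still overlapped, at 0.689 to 3.14 FPKM in WT and 2.72 to 5.205 FPKM in HrasG12V mice.

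WT mouse 2281 and HrasG12V mouse 2279, each the lowest of its genotype for Hspa1a and Hspa1b, were the 2 lowest mice for 4 of 16 immediate early genes, which are induced within minutes of a stimulus. For Hspa1a and Hspa1b themselves WT mouse 2277 was below mouse 2279, and the share of all genes with mice 2281 and 2279 lowest was not computed. The 4 were Fos, Jun, Atf3 and Btg2, picked out after the values were seen, while Nr4a1 was highest in mouse 2281 and Myc in mouse 2279. Fos was at 12.5 FPKM in WT mouse 2281 and 22.7 FPKM in HrasG12V mouse 2279, against 39.7 to 114 FPKM in the other 4 mice. Atf3 was at 1.71 and 2.04 FPKM in the same mice, against 10.05 to 34.8 FPKM in the others. Of 16 immediate early genes, 2 were higher (Junb, log2 fold change 1.05, and Myc, 0.64) and 1 was lower (Klf4, -0.43) at an unadjusted limma p below 0.05, and the part of any of these genes' variation in the Hspa1a and Hspa1b values was not tested.

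None of the stress-inducible chaperones was called higher with all 6 mice. Of 12 members known as heat shock factor 1 targets in stressed cells, 0 were higher, 1 was lower (Hsph1), against 4.99% of all genes, and the median log2 fold change was -0.01. Without HrasG12V mouse 2276, 4 of the 12 were lower, against 17.4% of all genes, and the median was -0.27, while without mouse 2279 it was 0.20. None was lower without WT mouse 2277, 2280 or 2281 or without mouse 2278, settings in which 2.33%, 2.43%, 2.32% and 5.59% of all genes were. Without WT mouse 2280, 2 were higher, against 2.87% of all genes, and without HrasG12V mouse 2279, 1 was, against 4.8%. Dnajb1, the J-domain partner induced together with Hspa1a, was at 6.17, 6.48 and 5.83 FPKM in the WT mice and at 6.59, 10.1 and 5.04 FPKM in HrasG12V mice 2276, 2278 and 2279. Only mouse 2278 stood above WT by a wide margin, and the log2 fold change was 0.17 (95% confidence interval -0.44 to 0.79). The inducible Hsp90 gene, Hsp90aa1, spanned 21.9 to 25.4 FPKM in WT mice and was 33.3, 33.2 and 19.1 FPKM in HrasG12V mice, so 2 mutant mice were above and 1 was below every WT mouse (log2 fold change 0.23, limma adjusted p = 0.810). Dnajb6, which carries a heat shock element and is mutated in a limb-girdle muscular dystrophy, was at 41.0, 35.0 and 37.0 FPKM in the WT mice and at 48.7, 29.0 and 40.7 FPKM in the HrasG12V mice. These values ran from below to above the WT range, with a log2 fold change of 0.04 (95% confidence interval -0.52 to 0.60). The heat shock factors and their binding proteins did not pass either: 0 of 5 genes tested were called, and Hsf1 spanned 19.5 to 25.1 FPKM in WT mice and 17.4 to 33.2 FPKM in HrasG12V mice.

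In the endoplasmic reticulum, the J-domain gene Dnajb9 was lower in all 3 HrasG12V mice, while for the main Hsp70 and Hsp90 of the compartment the mutant mice lay on both sides of WT. Of 13 members placed there, 2 were lower at an unadjusted limma p below 0.05 (Dnajb9 and Dnajc16), against 4.99% of all genes, 0 were higher, and the median log2 fold change was -0.18. The number lower was 4 of 13 without HrasG12V mouse 2276, against 17.4% of all genes, 1 without any 1 of the WT mice, against 2.32% to 2.43%, and 0 after scaling to the same total FPKM, against 2.49%. Hspa5, which encodes BiP, was at 96.1, 92.8 and 92.1 FPKM in the WT mice and at 121, 103 and 75.2 FPKM in HrasG12V mice 2276, 2278 and 2279. Hsp90b1, which encodes GRP94, was at 65.8, 58.0 and 64.0 FPKM in the WT mice and at 75.3, 82.8 and 51.9 FPKM in the HrasG12V mice. For both, mice 2276 and 2278 lay above every WT mouse and mouse 2279 below, and the log2 fold changes were 0.06 (95% confidence interval -0.50 to 0.63) and 0.14 (-0.43 to 0.70). Dnajc3, which encodes the BiP partner and kinase inhibitor p58IPK, was at 13.7, 13.8 and 15.3 FPKM in the WT mice and at 10.5, 14.9 and 12.6 FPKM in the HrasG12V mice, and its log2 fold change of -0.18 (95% confidence interval -0.61 to 0.24) did not pass. The 3 genes with an endoplasmic reticulum stress element thus had fold changes of either sign.

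Dnajc18 missed the threshold narrowly, at 10.7 to 12.7 FPKM in WT mice and 8.30 to 9.69 FPKM in HrasG12V mice (log2 fold change -0.36, limma adjusted p = 0.491), and was lower at p below 0.05 with a pseudocount of 1. Hspa13 was listed at 2.25, 5.84 and 3.43 FPKM in HrasG12V mice 2276, 2278 and 2279, while the WT mice had 5.07 to 5.55 FPKM, so the mutant mice fell on both sides of WT. Among 29 genes of the unfolded protein response that were tested outside the members, 0 were called in either direction, and the median log2 fold change was 0.02. The lowest was Chac1 (log2 fold change -0.71) and the highest was Sec61b (0.45). The sensor gene Atf6 spanned 10.5 to 11.4 FPKM in WT mice and 6.35 to 9.18 FPKM in HrasG12V mice, without overlap (log2 fold change -0.44, limma adjusted p = 0.497). 

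With all 6 mice weighted equally no mitochondrial chaperone was called, and the HrasG12V mice lay far apart for most of those described. Of 10 members placed there, 0 were called, 7 had log2 fold changes below 0 and the median was -0.23. With array weights, 5 of the 10 were lower at an unadjusted limma p below 0.05, against 12.3% of all genes. Without mouse 2276, 9 of the 10 were lower at an unadjusted limma p below 0.05, 1 with an adjusted p below 0.05, against 17.4% and 9.66% of all genes, and the median was -0.54, while without mouse 2279 it was 0.05. Hspa9, which encodes mortalin, the Hsp70 of the matrix and part of the protein import motor, was at 227, 182 and 178 FPKM in the WT mice and at 199, 136 and 122 FPKM in HrasG12V mice 2276, 2278 and 2279. Mouse 2276 lay within the WT range and the other HrasG12V mice below it (log2 fold change -0.39, SE 0.27, limma adjusted p = 0.680). Hspd1, the Hsp60 chaperonin, was at 136, 105 and 105 FPKM in the WT mice and at 145, 88.6 and 72.4 FPKM in the HrasG12V mice. Hspe1, its Hsp10 lid, was at 66.0, 50.6 and 53.6 FPKM in the WT mice and at 117, 38.1 and 38.5 FPKM in the HrasG12V mice. For both of these divergent neighbours, which share the printed heat shock element, mouse 2276 was above and the other mutant mice were below all WT mice, and neither log2 fold change passed (-0.23, limma adjusted p = 0.851, and -0.02, limma adjusted p = 0.994).

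Dnaja3, the Hsp70 partner of the matrix, was at 60.2, 49.0 and 55.2 FPKM in the WT mice and at 68.6, 39.3 and 35.6 FPKM in HrasG12V mice 2276, 2278 and 2279. Dnajc15, a J-domain protein at the inner-membrane import channel, was at 64.8, 59.2 and 67.4 FPKM in the WT mice and at 113, 42.6 and 31.5 FPKM in the HrasG12V mice. Its relative Dnajc19 was at 47.4, 44.5 and 49.2 FPKM in the WT mice and at 90.9, 38.5 and 38.0 FPKM in the HrasG12V mice. In each of the 3, the mutant mice bracketed WT in the same order as Hspd1, and the log2 fold changes were -0.25, -0.26 and 0.12 (limma adjusted p of 0.815, 0.894 and 0.945). Among 11 other mitochondrial chaperones and proteases, 0 were called, the lowest being the protease gene Yme1l1 (log2 fold change -0.37) and the highest Clpp (0.04).

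The small heat shock proteins included the most abundant member and the widest gaps between mutant mice. Hspb6, which encodes Hsp20, was at 915, 774 and 665 FPKM in WT mice (2277, 2280, 2281) and at 1418, 364 and 313 FPKM in HrasG12V mice 2276, 2278 and 2279. Mouse 2276 was thus above every WT mouse and mice 2278 and 2279 were at the bottom, and the log2 fold change of -0.51 (SE 0.61, limma adjusted p = 0.825) did not pass. Without mouse 2276 it was -1.20 (SE 0.18, limma adjusted p = 0.0230). Hspb7, the cardiovascular small heat shock protein, was at 254, 257 and 113 FPKM in the WT mice and at 449, 111 and 188 FPKM in the HrasG12V mice, with the low WT value in mouse 2281, the mouse with few slow-fiber transcripts. The part of fiber makeup in this value was not tested.

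Hspb1, which encodes Hsp25, was at 227, 242 and 174 FPKM in the WT mice and at 407, 185 and 130 FPKM in HrasG12V mice 2276, 2278 and 2279. Hspb2, whose product partners Hspb3, was at 52.7, 51.5 and 59.9 FPKM in the WT mice and at 133, 33.5 and 36.3 FPKM in the HrasG12V mice. The log2 fold changes were 0.01 (95% confidence interval -1.06 to 1.08) and -0.00 (-1.27 to 1.26), so the data allow differences of more than 2-fold either way. Of the 6 small heat shock proteins typical of muscle (Hspb1, Hspb2, Hspb3, Hspb6, Hspb7 and Hspb8), 0 were called and 3 lay on each side of 0. With array weights, 1 of the 6 was lower at an unadjusted limma p below 0.05, against 12.3% of all genes. Without mouse 2276, 2 of the 6 were lower, both with an adjusted p below 0.05, against 17.4% and 9.66% of all genes (Hspb6 and Hspb2, the latter with a log2 fold change of -0.65 and a limma adjusted p of 0.0331), and the median moved from 0.00 to -0.44. Cryab, the alpha-crystallin gene next to Hspb2, showed the same pattern, at 885 to 1096 FPKM in WT mice and at 1961, 394 and 586 FPKM in the HrasG12V mice. Counted on either strand, 28% of the 50-base windows of the Hspb2 transcript occur in Cryab transcripts. Of 5 genes tested for alpha-crystallins and partners of the BAG3 pathway, 1 was lower, Synpo2, at 89.2 to 98.7 FPKM in WT and 56.4 to 66.0 FPKM in HrasG12V mice (log2 fold change -0.58, limma adjusted p = 0.433).

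**Figure D3:**
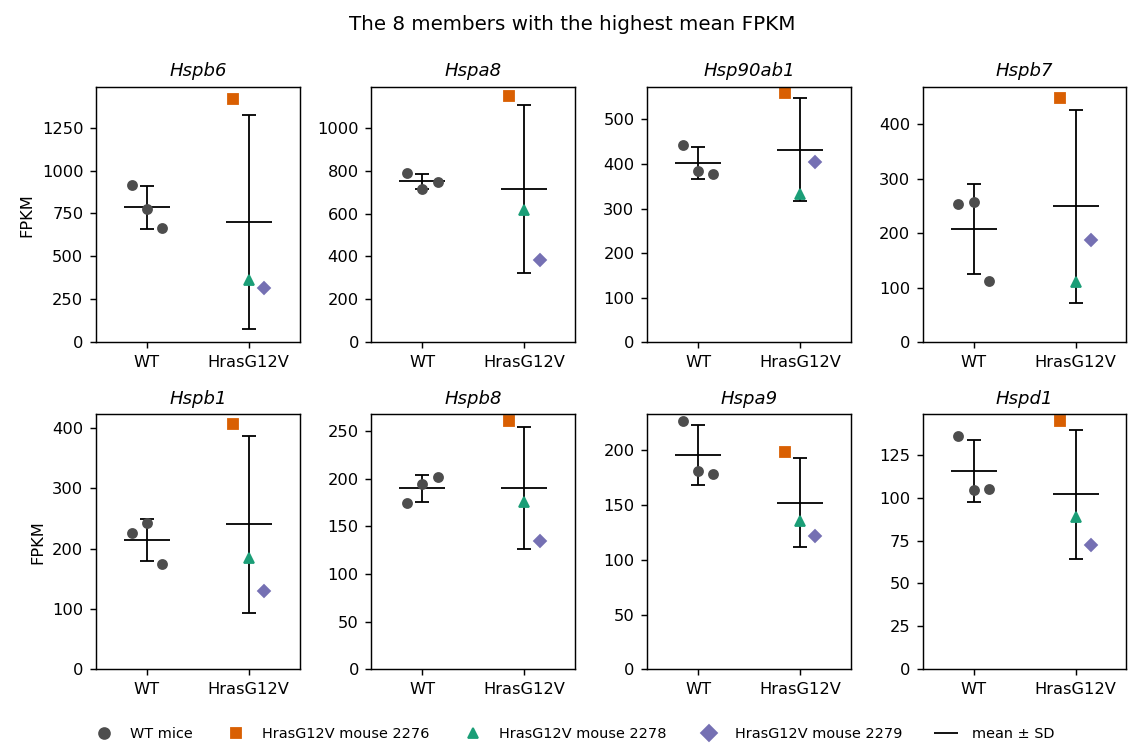
Each panel plots the FPKM of 1 of the 8 members with the highest mean over all libraries, in every mouse (vertical axis, from 0), with WT mice as circles, HrasG12V mice by number, and bars for the mean and SD of 3 mice. HrasG12V mouse 2276 is the highest of the 6 mice in 7 of the 8 panels, as in Hspb6 at 1418 FPKM, Hspa9 being the exception, and mouse 2278 or 2279 is the lowest in all 8.

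Among the cytosolic Hsp70 and Hsp90 genes, the constitutive forms were the most abundant, and with Hspb6 they made up 39.2% to 48.9% of the summed FPKM of all members in each mouse. Hspa8, the constitutive Hsc70, was at 789, 717 and 747 FPKM in the WT mice and at 1149, 615 and 382 FPKM in HrasG12V mice 2276, 2278 and 2279. The WT mice were close together and the mutant mice lay far apart on both sides, and the log2 fold change of -0.22 (95% confidence interval -1.28 to 0.85) did not pass. Hsp90ab1 was at 443, 384 and 378 FPKM in the WT mice and at 560, 333 and 404 FPKM in the HrasG12V mice (log2 fold change 0.08, 95% confidence interval -0.63 to 0.78). Of 34 genes for Hsp70 and Hsp90 co-chaperones, 1 was called, Cdc37l1, which was lower at 29.0 to 34.0 FPKM in WT and 21.8 to 25.2 FPKM in HrasG12V mice (log2 fold change -0.48, limma adjusted p = 0.454). The cytosolic folding machines outside the members gave no call: 0 of 8 genes of the TRiC chaperonin, with log2 fold changes from -0.17 to 0.07, and 0 of 5 prefoldin genes, from -0.15 to 0.47.

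Of the DNAJA and DNAJB genes, which deliver general clients to Hsp70, Dnaja2 was the most abundant DNAJA gene, at 85.4, 82.1 and 96.5 FPKM in the WT mice and at 76.3, 76.7 and 85.8 FPKM in HrasG12V mice 2276, 2278 and 2279. Mouse 2279 lay within the WT range and the others below it, with a log2 fold change of -0.14 (95% confidence interval -0.59 to 0.30). Dnajb5 led the DNAJB genes, at 96.2, 91.9 and 115 FPKM in the WT mice and at 140, 75.6 and 84.2 FPKM in the HrasG12V mice, again with mouse 2276 above and the others below WT (log2 fold change -0.06, limma adjusted p = 0.966). 

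The DNAJC genes, whose J domains serve specific sites in the cell, held both tested members that were higher in every HrasG12V mouse. Dnajc7, a co-chaperone with repeats that bind Hsp70 and Hsp90, spanned 35.9 to 37.2 FPKM in WT mice and was 65.2, 39.9 and 38.2 FPKM in HrasG12V mice 2276, 2278 and 2279. Dnajc9, a histone chaperone, spanned 6.57 to 7.77 FPKM in WT mice and was 10.7, 8.16 and 9.23 FPKM in the HrasG12V mice. Neither passed, with log2 fold changes of 0.35 for each and limma adjusted p of 0.682 and 0.538. Of 6 members that act at the spliceosome, the ribosome or on histones (Dnajc2, Dnajc8, Dnajc9, Dnajc17, Dnajc21 and Hspa14), 0 were called, against 5.18% of all genes called higher. Log2 fold changes lay above 0 for 6 of 6, from 0.06 to 0.47, with a median of 0.33, and for 6230 of 13359 genes tested. Quantile normalization gave higher calls for Dnajc8 and Dnajc9 (6.19% of all genes), and the same total FPKM for Dnajc8 (2.84%). Dnajc9 was called higher without mouse 2278 (4.09%) and Dnajc17 without mouse 2279 (4.8%). Without mouse 2276 the median was 0.14 and the values ran from -0.16 (Dnajc21) to 0.25 (Dnajc9). The vesicle protein gene Dnajc5 was the flattest of the non-overlapping genes, at 24.6 to 25.1 FPKM in WT mice and 23.1 to 24.4 FPKM in HrasG12V mice (log2 fold change -0.06).

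For many chaperones, HrasG12V mouse 2276 lay on one side of WT and mice 2278 and 2279 on the other. Relative to the mean of the WT mice, the median member was 0.34 higher in mouse 2276 on the log2 scale, 0.29 lower in mouse 2278 and 0.34 lower in mouse 2279, whereas the medians of all genes were 0.04, -0.08 and -0.04. Mouse 2276 was the highest of the 6 mice for 33 of 63 members, against 35.5% of all genes, and the lowest for 9, against 30.7%. Mice 2278 and 2279 were both below every WT mouse for 29 members, against 28.3% of all genes, and both above for 2, against 19.9%. Both patterns together, with mouse 2276 above and the other mutant mice below every WT mouse, held for 16 members, against 14% of all genes, and the reverse for 0, against 7.64%. These counts were made after the split had been seen and carry no test.

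**Figure D4:**
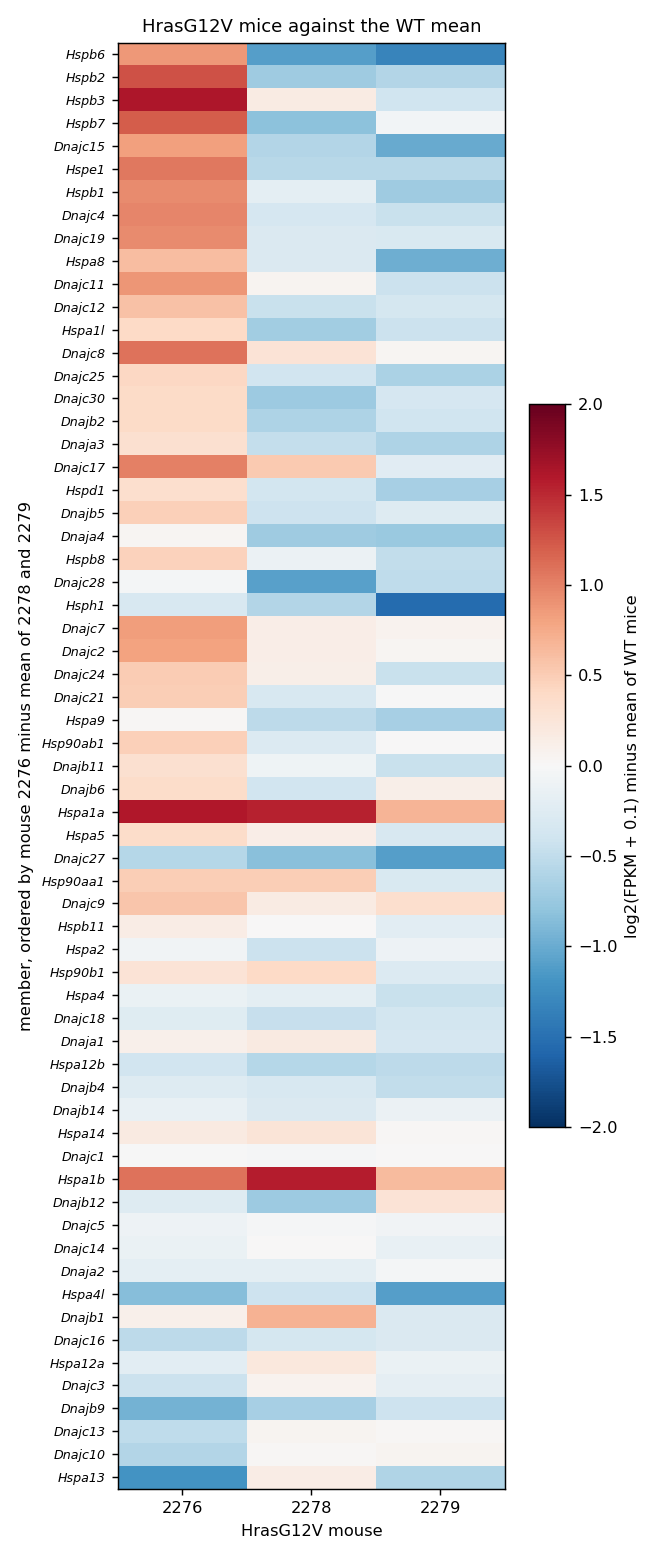
The color map gives, for each of the 63 members (rows) and each HrasG12V mouse (columns), the log2(FPKM + 0.1) minus the mean of the 3 WT mice, from blue (lower) to red (higher), with rows ordered by the gap between mouse 2276 and the mean of mice 2278 and 2279. Small heat shock proteins fill the top rows, where mouse 2276 is red and the others mostly blue, while rows such as Dnajc27, Hspa4l and Dnajb9 are blue in all 3 mice.

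The difference between mouse 2276 and the mean of mice 2278 and 2279 had a median of 0.58 on the log2 scale over the members and 0.06 over all genes tested. It was largest for Hspb6 (2.07), Hspb2 (1.93), Hspb3 (1.73) and Hspb7 (1.64), and lowest for Hspa13 (-0.96). Members with short transcripts had the larger gaps. Across the 63 members the gap and the log2 length of the longest annotated transcript had a Pearson r of -0.55 and a Spearman rho of -0.51, and across 13260 genes the values were -0.11 and -0.42, given as descriptions since all points come from the same 3 libraries. The 31 members with the shorter transcripts had a median gap of 0.76, and the 32 others 0.19. After a trend over transcript length was removed from each library, an alternative chosen after the data were seen, 3 members were lower at a limma p below 0.05 (Dnajc27, Dnajb9 and Hspa12b) and 0 were higher, against 4.7% and 6.38% of all genes. The slow-fiber sum was also highest in mouse 2276. The part of transcript length, of slow-fiber transcripts and of the lymphocyte transcripts of mice 2278 and 2279 in the split was not tested.

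**Figure D5:**
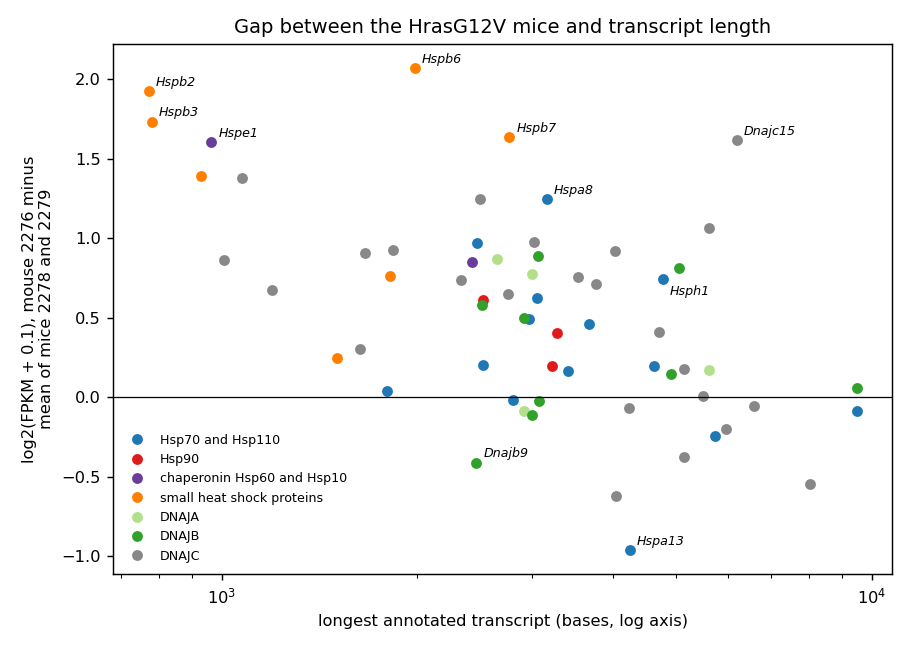
Each point is a member, placed by the length of its longest annotated transcript (horizontal log axis, bases) and by the log2(FPKM + 0.1) of HrasG12V mouse 2276 minus the mean of mice 2278 and 2279 (vertical axis), with colors for families. Short transcripts such as Hspb2 and Hspe1 lie high, and Hspa13, at -0.96, is the lowest point.

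The number of chaperones called depended on which HrasG12V mice were included. Without mouse 2276, 25 of 63 members were lower at a limma p below 0.05 and 0 were higher, against 17.4% and 12.4% of all genes, and 5 had an adjusted p below 0.05 (Dnajc27, Hspb6, Dnaja4, Hspb2 and Dnajc15), against 9.66%. The members' median log2 fold change was then -0.26, and that of all genes -0.07. Without mice 2278 and 2279, a choice made after the data were seen that leaves a lone HrasG12V mouse assumed to vary like the WT mice, 27 members were higher and 9 lower, against 25.5% and 21.7% of all genes.

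The 9 members under the limit of 0.5 FPKM were Dnajb3, Dnajb7, Dnajb8, Dnajb13, Dnajc5b, Dnajc5g, Dnajc6, Dnajc22 and Hspb9. Dnajc5b and Dnajc5g were listed at 0 in all 6 libraries. Dnajb3 did not overlap between genotypes, at 0.0192 to 0.0683 FPKM in WT and 0.104 to 0.229 FPKM in HrasG12V mice. Dnajc6, the neuronal auxilin, was at 0.340 and 0.481 FPKM in mice 2278 and 2279 and at 0.00644 to 0.0676 FPKM in the other 4 mice.

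Some members share sequence with other genes, so that 50-base reads could have been assigned to either. The share of a member's 50-base windows found in transcripts of another gene, on either strand, was 71.4% for Hspa1l, 58.5% for Hsp90aa1, 52.7% for Hspa8, 51.9% for Dnaja4, 51.6% for Hspb1 and 44.8% for Hspd1. The share of their reads that this affected was not measured. It was 0% for Dnajc27, Hsph1, Dnajc16 and Hspa12b, 0.447% for Hspa4l and 5.8% for Dnajb9, the members called lower.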

How the data were processed

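Values were FPKM per gene, 1 table per mouse, which the authors had made with Cuffnorm before they deposited them, from single-end reads of a stranded mRNA library kit. The submitters' processing notes name bcl2fastq, TopHat, Cufflinks, Cuffnorm and the build GRCm38 (mm10), with no versions, and the gene annotation was not given in the sources used here. Libraries are scaled to each other by Cuffnorm, which can list a gene at 0 where its estimate failed. Whole reads could not be recovered (over 15 library pairs, the fullest bin of ratios between low values held 0.963% to 5.89% of genes), so the depth of each library is not known from the files and no count model was used.

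Genes with a mean of at least 0.5 FPKM over the 6 libraries were fitted as log2(FPKM + 0.1) in R 4.3.3 with limma 3.58.1 (moderated variances following an abundance trend, no covariate), with Benjamini-Hochberg adjustment over all 13359 genes, two-sided, at a threshold of 0.05. Fold changes on this scale understate those of low genes. Unadjusted p is named as p, and "called" means an unadjusted p below 0.05. P-values set the difference between genotypes against the spread between mice, which was pooled over both genotypes and moderated across genes. The fit was also run on simulated data with independent mice and the same spread in both genotypes. That run does not cover the unequal spread of the genotypes seen here. Members and gene lists were chosen with earlier results of these data known. Values in every mouse are given for members with p below 0.05, members without overlap and at least 1.5-fold apart, the 2 most abundant of each family, 9 genes of the heat shock and endoplasmic reticulum responses, and the highest and lowest fold change, while of each list the called genes or else the highest and lowest are named. Other genes (Hspa4, Hsp90aa1, Hspb2, Dnajc18, Hspa13, Dnajc7, Dnajc9, Dnajc5, Cryab, Fos, Jun, Atf3, Btg2, Nr4a1, Hsf1, Atf6 and members below the limit) were named after their values were seen. Positions and transcripts came from GENCODE vM21 and promoters from RefSeq, both on GRCm38. Python 3.11.15, pandas 2.3.3 and matplotlib 3.10.9 were used for tables and figures. Alternatives were other pseudocounts (1 and 0.01), filters, normalizations, array weights, an unmoderated test, and each mouse left out.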

Additional observations from a re-analysis of the deposited data

How the results depend on the processing

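No paired analysis was possible because the genotypes share no replicate numbers. Shares of all genes called by the same rule are given in brackets. The number of members lower at a limma p below 0.05 was 6 (4.99%), and was 3 after scaling to the same total FPKM (2.49%), 17 with array weights (12.3%), 3 after removal of a length trend (4.7%), and 3 to 25 with a mouse left out, the highest without HrasG12V mouse 2276 (17.4%) and the lowest without WT mouse 2277 or 2280 (2.33% and 2.43%). The number higher was 0 (5.18%), and was 1 with no filter (Dnajb3, 4.91%), 3 with quantile normalization (6.19%), 1 with the same total FPKM (2.84%), 27 without mice 2278 and 2279 (25.5%), and 0 to 2 with a mouse left out (2.22% to 12.4%). The number with an adjusted p below 0.05 was 0 (0.0599%), and was 1 with array weights (4.28%), 21 without mice 2278 and 2279 (31.4%), and 0 to 5 with a mouse left out (0.0524% to 9.66%). The median log2 fold change was -0.07, moved between -0.26 and 0.02 with a mouse left out, and was 0.34 without mice 2278 and 2279. Of 63 members, 2 turned direction with a call without mouse 2276 (Dnajc4 and Dnajc19), and the share of all genes that did so was not computed. Dnajc19 was among the 26 members given by mouse under the naming rule, and its values ran from -0.30 to 0.33 with a mouse left out. Without mice 2278 and 2279, log2 fold changes turned from below to above 0 for members such as Dnajc15 (0.82), Hspa8 (0.61), Hspb6 (0.87) and Hspe1 (1.05). Cause was not tested in any of these. The 6 called members kept their direction in all 102 values under the alternatives and lost the call in 18. For these 6 every HrasG12V mouse was below every WT mouse, so leaving mice out could not turn their direction. The kept direction therefore adds no support. The removed length trend and the removal of mice 2278 and 2279 were chosen after seeing the data. With 3 mice per genotype, the confidence intervals of most members include a 1.5-fold difference.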
